A study of Homo sapiens with 6 samples.

Results

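The mRNAs described here encode the MHC class I complex and the machinery that fills it with peptide: B2M, HLA-B, HLA-C, HLA-E, TAP1, TAP2 and TAPBP. These 7 genes, of the 58302 listed, were taken by gene name from both deposited tables, and the set was chosen by function and by the deposited folds over IgG, in which B2M is low. They come from an RNA immunoprecipitation and sequencing (RIP-seq) experiment on HepG2, a human hepatocellular carcinoma cell line, in which an antibody pulls down a protein and the RNA bound to it is read. The proteins were PABPC1 and PABPC4, cytoplasmic poly(A)-binding proteins that coat the tail of mRNAs. Per the labels there were 2 libraries with anti-PABPC1 from HepG2 cells overexpressing PABPC1, 2 with anti-PABPC4 from cells overexpressing PABPC4, and 2 with rabbit IgG, 1 from each overexpressing population. All 3 groups therefore carried an overexpressed poly(A)-binding protein, and none of the 6 libraries came from unmodified cells or from input RNA. Nothing in the labels says that paired libraries came from separate cultures, so a p-value across libraries reflects how far apart these libraries lie, and that distance may be technical.

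Class I molecules show short peptides from inside the cell to cytotoxic T cells and natural killer cells. Each has a polymorphic heavy chain (such as HLA-B, HLA-C or the less variable HLA-E) bound to the light chain beta-2-microglobulin, the product of B2M. Peptides made by the proteasome are pumped into the endoplasmic reticulum by the transporter TAP1-TAP2, and tapasin (TAPBP) with calreticulin (CALR), calnexin (CANX) and ERp57 (PDIA3) holds the empty heavy chain until a fitting peptide binds. Hepatocytes are known for low resting class I levels that interferon raises.

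The genes lie in 2 places in RefSeq's annotation of GRCh38.p14. B2M is on chromosome 15 at chr15:44711517-44718145, and the other 6 are in the MHC on chromosome 6, with HLA-E at chr6:30489509-30494194, HLA-C at chr6:31268749-31272092, HLA-B at chr6:31353875-31357179, TAP2 at chr6:32821831-32838739, TAP1 at chr6:32845209-32853704 and TAPBP at chr6:33299694-33314078. RefSeq's promoter table had entries for 6 of the 7, all but HLA-E. The 200 bases before the start site are shown for the light chain, for 2 heavy chains that were low with it, and for TAPBP, which was not, to set beside their values the elements for which class I promoters are known. Capitals mark the letters of 3 motifs searched on both strands: the CCAAT box, the core of a CREB site (TGACG), and a GAAA pair, in which the same 4 letters recur after any 2 bases (the core of an interferon-stimulated response element). On the other strand CCAAT reads ATTGG. They are reference sequences and not the alleles of HepG2. B2M is the window chr15:44711317-44711516 on the + strand, and HLA-B (chr6:31357180-31357379), HLA-C (chr6:31272093-31272292) and TAPBP (chr6:33314079-33314278) are on the - strand.
B2M: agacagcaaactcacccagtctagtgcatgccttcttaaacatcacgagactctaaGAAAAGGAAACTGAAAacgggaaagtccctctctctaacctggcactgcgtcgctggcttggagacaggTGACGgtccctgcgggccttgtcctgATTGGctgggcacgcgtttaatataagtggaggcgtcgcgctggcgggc
HLA-B: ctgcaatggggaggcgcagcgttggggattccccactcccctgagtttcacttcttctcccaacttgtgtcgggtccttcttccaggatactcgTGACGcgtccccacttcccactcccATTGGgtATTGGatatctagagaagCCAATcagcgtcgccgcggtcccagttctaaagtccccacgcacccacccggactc
HLA-C: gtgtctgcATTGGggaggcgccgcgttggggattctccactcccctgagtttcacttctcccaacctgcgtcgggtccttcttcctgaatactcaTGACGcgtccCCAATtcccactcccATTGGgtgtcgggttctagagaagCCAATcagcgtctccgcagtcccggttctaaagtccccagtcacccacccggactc
TAPBP: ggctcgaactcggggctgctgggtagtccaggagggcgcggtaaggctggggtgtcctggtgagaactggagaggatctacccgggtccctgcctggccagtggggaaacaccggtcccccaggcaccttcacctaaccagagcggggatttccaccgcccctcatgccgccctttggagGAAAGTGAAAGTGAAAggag
The B2M window held 1 CCAAT, 1 TGACG and 2 overlapping GAAA pairs. HLA-B held 3 CCAAT and 1 TGACG, HLA-C held 4 and 1, and TAPBP held 2 overlapping GAAA pairs and neither of the others. Of 35116 windows of the same length, 28.0% held CCAAT, 18.4% TGACG, 2.4% a GAAA pair and 0.103% all 3. A match describes the letters only, and RIP-seq does not measure transcription.

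The depth was low. Whole reads could be recovered from the deposited values, which gave library totals of 289217 and 277552 (PABPC1), 850190 and 841327 (PABPC4) and 133030 and 94235 (IgG); libraries are called A and B within an antibody, A being the deeper. Both comparisons with IgG used the same 2 IgG libraries, so they share their control. At most 35.5% to 41.1% of reads were mitochondrial rRNA with PABPC1, 15.8% to 16.8% with PABPC4 and 54.4% to 56.5% with IgG, so that levels relative to all reads and levels without that rRNA differ. Hepatocyte markers were present: all 14 had reads in both RIPs, and together they stood at 7292 and 8117 RPM (reads per 1000000 reads of the library) with PABPC1, 9975 and 10623 with PABPC4, and 4683 and 4712 with IgG. Intervals given below are exact 95% intervals and cover counting error only.

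The light chain and 3 heavy chains were the low members in both RIPs, and tapasin was the high one. Both libraries of the RIP stood below both IgG libraries for B2M, HLA-B, HLA-C and HLA-E, which is 4 of 7 members with PABPC1 and 4 of 7 with PABPC4. Among all genes with at least 20 summed reads, 5.7% did so with PABPC1 and 3.29% with PABPC4. TAPBP stood above IgG in both RIPs, as did 52.7% of such genes with PABPC1 and 69.3% with PABPC4. TAP1 and TAP2 overlapped. Since B2M was chosen for being low against IgG, nothing is read from these counts.

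**Figure D1:**
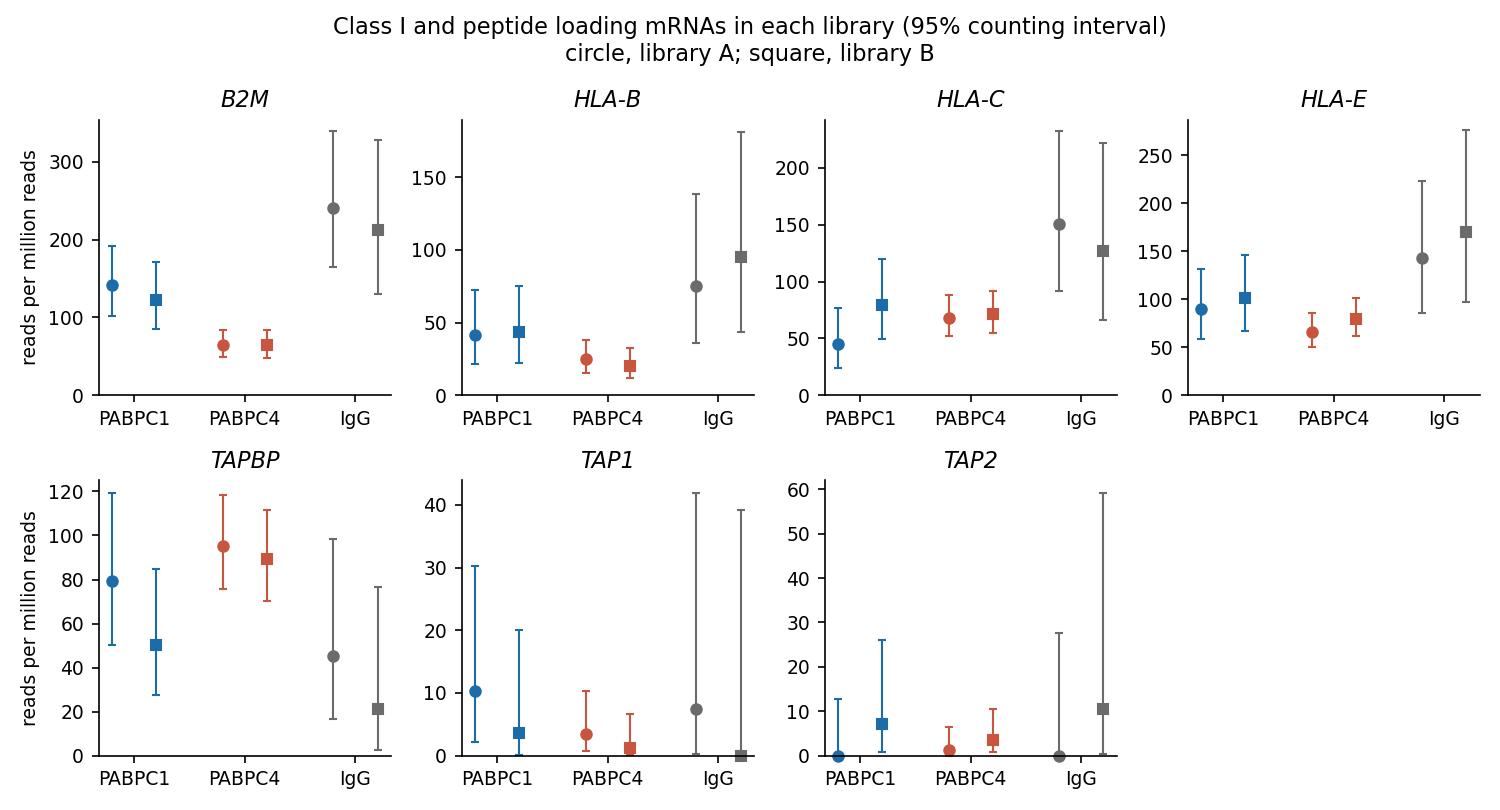
Reads per 1000000 reads (RPM) for each mRNA in each library, with circles for library A, squares for library B and bars for the 95% counting interval; the vertical axes differ between panels. B2M lies at 212 to 241 with IgG, 122 to 142 with PABPC1 and 64.2 to 64.7 with PABPC4, and TAPBP is lowest with IgG.

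B2M encodes the light chain that every class I heavy chain needs to reach the cell surface. Its RPM was 142 and 122 in the PABPC1 libraries, 64.7 and 64.2 in the PABPC4 libraries, and 241 and 212 with IgG. The library values of the 3 antibodies did not overlap, and the pair of libraries within each lay close together. The share of all genes with such an order is not given, here or for the heavy chains below, so nothing is read from it. Over summed reads (75, 109 and 52), the level was 132 RPM (104 to 166) with PABPC1, 64.4 (52.9 to 77.7) with PABPC4 and 229 (171 to 300) with IgG. The ratio to IgG was 0.578 (0.401 to 0.840) with PABPC1 and 0.282 (0.201 to 0.400) with PABPC4. The authors' deposited table gave B2M a fold of 0.584 for PABPC1 with an adjusted p of 0.135, and their table for PABPC4 a fold of 0.285 with an adjusted p of 4.84e-13. Their p-value is a chi-square test on summed reads, which leaves out the spread between libraries. The bulk measurement cannot tell apart fewer cells of a type, less RNA per cell and less of that RNA pulled down.

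HLA-B encodes a classical heavy chain that presents peptides to cytotoxic T cells. It stood at 41.5 and 43.2 RPM with PABPC1, 24.7 and 20.2 with PABPC4, and 75.2 and 95.5 with IgG. As for B2M, the library values of the 3 antibodies did not overlap and PABPC4 was lowest. The counting intervals of PABPC1 and IgG libraries did overlap, at 22.3 to 75.5 RPM in PABPC1 library B and 36.0 to 138 in IgG library A. The ratio to IgG was 0.507 (0.266 to 0.978) with PABPC1 and 0.269 (0.151 to 0.493) with PABPC4, resting on 24, 38 and 19 reads. The authors' deposited table listed a fold of 0.496 for PABPC1 (adjusted p 0.624) and 0.263 for PABPC4 (adjusted p 6.70e-05).

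HLA-C, another classical heavy chain and a main ligand of killer cell receptors, had 44.9 and 79.3 RPM with PABPC1, 68.2 and 71.3 with PABPC4, and 150 and 127 with IgG. The PABPC1 libraries lay to either side of the PABPC4 libraries, and both RIPs lay below IgG. The ratio to IgG was 0.439 (0.264 to 0.732) with PABPC1 and 0.495 (0.333 to 0.757) with PABPC4. In the authors' deposited table the PABPC1 fold was 0.447 with an adjusted p of 0.0555, just outside the threshold of 0.05, and the PABPC4 fold was 0.502 with 0.0108, just inside it.

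HLA-E presents leader peptides of other class I chains to natural killer cells. It had 89.9 and 101 RPM with PABPC1, 65.9 and 79.6 with PABPC4, and 143 and 170 with IgG. The order of the antibodies was that of B2M, with narrower gaps. The ratio to IgG was 0.619 (0.397 to 0.975) with PABPC1 and 0.472 (0.322 to 0.708) with PABPC4, and the authors' deposited table gave folds of 0.610 (adjusted p 0.624) and 0.465 (adjusted p 0.00279).

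The nonclassical heavy chains HLA-F and HLA-G, which are not members, were nearly absent. HLA-F had 8 reads with PABPC1, 3 with PABPC4 and 0 of 227265 with IgG, which allows up to 16.2 RPM there, and HLA-G had 0 reads in every library. The HLA chains are near-identical over much of their length and HepG2 carries its own alleles, so how the authors' counting assigned reads among them is uncertain. The sum of HLA-B, HLA-C and HLA-E does not depend on how reads were split among those 3: it was 176 and 223 RPM with PABPC1, 159 and 171 with PABPC4, and 368 and 393 with IgG, a ratio of 0.527 (0.394 to 0.706) and 0.436 (0.341 to 0.562).

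The transporter subunits were nearly absent from every library. TAP1, which with TAP2 forms the peptide pump, had 3 and 1 reads with PABPC1, 3 and 1 with PABPC4, and 1 and 0 with IgG. TAP2 had 0 and 2, 1 and 3, and 0 and 1. At this depth no difference was detectable: the ratio of TAP1 to IgG ran from 0.159 to 79.0 with PABPC1 and from 0.0532 to 26.5 with PABPC4 within its interval. The authors' deposited table gave an adjusted p of 1 to TAP1 and TAP2 in both comparisons.

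TAPBP encodes tapasin, which bridges TAP and the empty heavy chain, and it lay on the other side of IgG. It had 79.5 and 50.4 RPM with PABPC1, 95.3 and 89.1 with PABPC4, and 45.1 and 21.2 with IgG, where only 6 and 2 reads were counted. All 4 RIP libraries lay above both IgG libraries. The ratio to IgG was 1.85 (0.850 to 4.61) with PABPC1 and 2.62 (1.30 to 6.18) with PABPC4. The authors' deposited table listed folds of 1.96 (adjusted p 1) and 2.78 (adjusted p 0.103), neither past the threshold.

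Counted by the authors' deposited adjusted p under 0.05, 0 of the 7 members passed with PABPC1, where 0.194% of all genes with a deposited p were lower and 1.34% higher. At the deposited unadjusted p under 0.05 there were 4 lower members, and Fisher's exact test on the recovered reads also gave 0 after adjustment. With PABPC4, 4 of 7 were lower (B2M, HLA-B, HLA-C and HLA-E) and 0 higher, where 0.9% of all genes were lower and 5.54% higher. Among the 829 genes with at least 20 IgG reads, which include B2M, HLA-C and HLA-E, 3.02% were lower with PABPC4 and 59.2% higher, against 2.29% and 18.7% with PABPC1. The median log2 ratio to IgG was -0.69 over the 7 members with PABPC1 and -1.01 with PABPC4, beside 0.27 and 0.69 over all genes with reads on both sides.

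How low the class I mRNAs were against IgG depended on the scaling, and their direction was the same under the 3 scalings tried. With mitochondrial rRNA left out of the totals, the B2M ratio became 0.416 (0.288 to 0.604) with PABPC1 and 0.149 (0.106 to 0.212) with PABPC4. Under that scaling 3 members were lower with PABPC1 at an adjusted p under 0.05 by the same chi-square test, namely B2M (3.91e-04), HLA-C (5.34e-04) and HLA-E (0.0397), where 0.427% of genes were lower and 0.154% higher. Median-of-ratios scaling gave 2, B2M and HLA-C, where 0.29% were lower and 0.205% higher. With PABPC4 the same 4 members were lower under both, where 1.79% of genes were lower and 0.597% higher without mitochondrial rRNA, and 1.66% and 0.788% with median-of-ratios scaling. TAPBP was at 1.33 (0.611 to 3.31) with PABPC1 and 1.39 (0.687 to 3.27) with PABPC4 without mitochondrial rRNA. With PABPC4, leaving out either IgG library left 2 of the 4 calls, B2M and HLA-B, and HLA-C and HLA-E lost theirs.

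**Figure D2:**
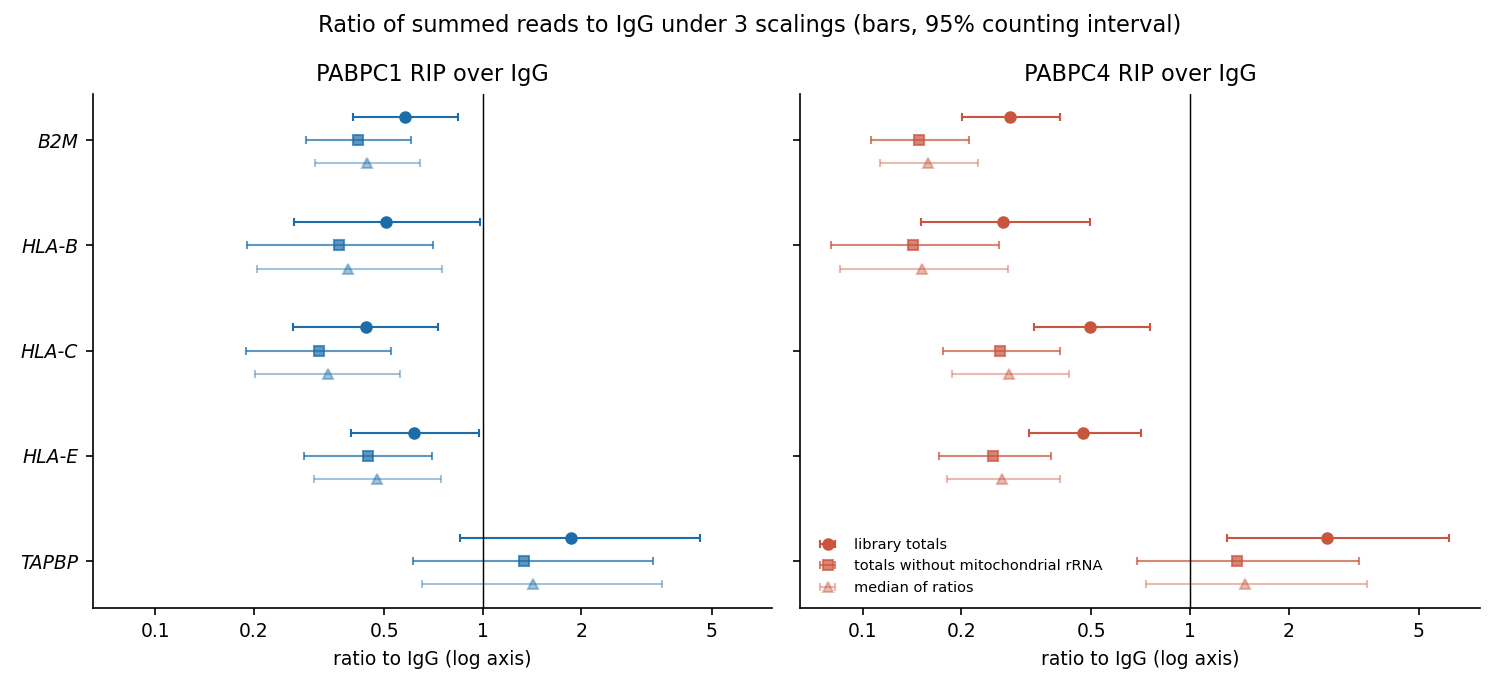
Ratio of summed depth-scaled reads in the PABPC1 RIP (left) and PABPC4 RIP (right) to IgG on a log axis, under scaling to all reads, to reads without mitochondrial rRNA, and by median of ratios; bars are 95% counting intervals. B2M, HLA-B, HLA-C and HLA-E lie left of 1 under all 3 scalings in both panels, and TAPBP lies right of 1.

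Levels of different genes can be compared only per length. The length the deposited fold implies for B2M is 6089 nucleotides of a gene span of 6629, so its per-kilobase level is set by an annotation that counts most of the gene as exon. In RPKM (RPM per kilobase of that length), IgG ordered the members as HLA-C (60.0 and 50.8), HLA-E (48.0 and 57.1), B2M (39.5 and 34.9), HLA-B (24.6 and 31.3) and TAPBP (8.92 and 4.20). By these library values HLA-C and HLA-E overlapped there, and the other neighbours did not. Counting error is left out of this order and of those below. With IgG, HLA-B rested on 10 and 9 reads and TAPBP on 6 and 2, so their places are uncertain. With PABPC4 the order was HLA-C (27.2 and 28.4), HLA-E (22.1 and 26.8), TAPBP (18.8 and 17.6), B2M (10.6 and 10.5) and HLA-B (8.10 and 6.62), with no overlap between neighbours. TAPBP thus stood below B2M and HLA-B with IgG and above both with PABPC4. With PABPC1, HLA-E (30.2 and 33.9) overlapped HLA-C (17.9 and 31.6), which spanned B2M (23.3 and 20.1), and TAPBP (15.7 and 9.98) spanned HLA-B (13.6 and 14.2).

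The direct comparison of the RIPs sets no level against IgG. The IgG libraries still entered its fit, through the scaling, the read filter and the shared estimate of spread. The comparison rests on the same RIP reads as the folds over IgG by which B2M was chosen, so it is not independent of that choice for B2M. It compares the mRNA levels in the PABPC4 and PABPC1 RIPs, and it was tested with limma voom over 7987 genes. The antibody and the overexpressed protein differed together, and no input RNA was read. A difference in pull-down and a difference in mRNA level between the cells therefore cannot be told apart. B2M, HLA-B and HLA-E were lower with PABPC4, and HLA-C and TAPBP did not pass the test. The log2 difference (PABPC4 minus PABPC1, relative to the median gene) was -1.48 ± 0.23 (SE, n = 2 and 2) for B2M, with a limma voom adjusted p of 3.49e-05. It was -1.39 ± 0.37 for HLA-B (limma voom adjusted p 0.0197) and -0.85 ± 0.25 for HLA-E (limma voom adjusted p 0.0373). Fitted to only the 4 RIP libraries, the difference was -1.41 for B2M (limma voom adjusted p 7.17e-06). In that fit it was -1.32 for HLA-B (limma voom adjusted p 0.00895) and -0.79 for HLA-E (limma voom adjusted p 0.0233). Both PABPC4 libraries were below both PABPC1 libraries in RPM for each of these. The share of all genes with that order is not given here, so nothing is read from it. By limma voom, the share of all genes called lower was 2.08%, and 2.44% were higher.

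HLA-C differed by -0.26 ± 0.29 (limma voom adjusted p 0.734) and TAPBP by 0.07 ± 0.28 (0.940), each under its standard error. TAP1 and TAP2 had too few reads to be tested. Missing the threshold does not show that levels were alike, and a difference between HLA-C and B2M was not tested. Scaled to library totals, B2M kept its call at -1.04 (limma voom adjusted p 0.00198), whereas HLA-B was at -0.94 (0.0854) and HLA-E at -0.41 (0.295), and the split of all calls moved from 195 higher and 166 lower to 1113 higher and 54 lower. Without PABPC1 library A or without library B, none of the 3 calls was left: B2M was at -1.31 (limma voom adjusted p 0.232) and -1.65 (0.110), and of all genes tested 5 were called higher and 10 lower in the first case, 1 and 11 in the second.

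**Figure D3:**
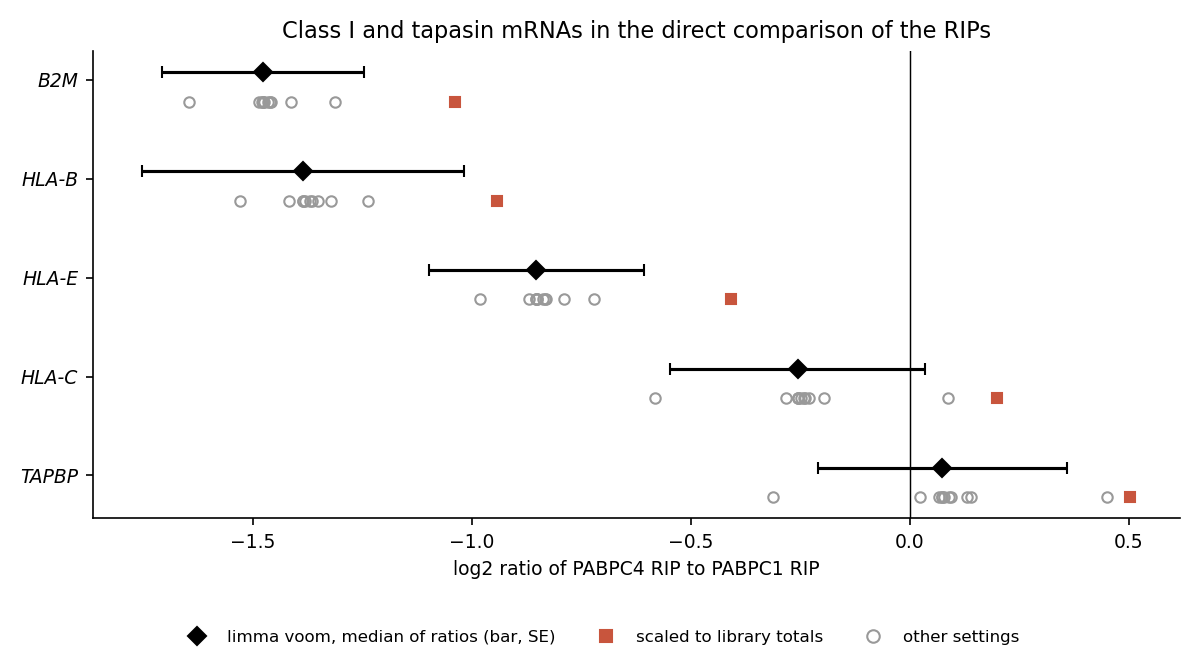
Log2 ratio of PABPC4 RIP to PABPC1 RIP for the class I and tapasin mRNAs: diamonds with SE bars are the limma voom fit, squares the same fit scaled to library totals, and open circles the other settings and fits that leave out 1 library. B2M, HLA-B and HLA-E lie left of 0 in each setting drawn, and HLA-C and TAPBP lie on both sides.

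The other genes of the pathway, from lists written for this purpose with earlier results known, were read against the same library totals; of those outside class I and class II, most lay above IgG, as did the median gene. Peptide transport and loading held 11 genes, of which the authors' deposited table called 1 higher with PABPC1 and 5 with PABPC4, and 0 lower, where 1.34% and 5.54% of all genes were higher. Of the 4 with at least 20 IgG reads, 0 and 3 were called higher, beside 18.7% and 59.2% of all genes at that depth, so the PABPC4 count is near the background. Over the 11 genes their median log2 ratio was 0.61 and 0.90, beside 0.27 and 0.69 over all genes. CALR, a lectin chaperone of the loading complex, had 1.61 times the IgG level with PABPC4 in the authors' deposited table (adjusted p 2.29e-13) and 1.12 with PABPC1 (0.874). CANX, the membrane-bound relative that receives new heavy chains, was at 1.85 with PABPC4 (9.35e-15) and 1.17 with PABPC1 (0.756) in the authors' deposited table. PDIA3, the oxidoreductase joined to tapasin, was at 3.92 (adjusted p 1.44e-04) with PABPC4 and 2.78 (0.0939) with PABPC1 in the authors' deposited table, on 11 IgG reads.

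PDIA6, another disulfide isomerase, was at 2.47 (adjusted p 4.25e-06) with PABPC4 in the authors' deposited table. UGGT1, which marks misfolded glycoproteins for another round of folding, was called in both, at 2.84 (0.0126) with PABPC1 and 3.23 (1.73e-04) with PABPC4 in the authors' deposited table. CALR, CANX, PDIA3 and TAPBP summed to 2420 and 2749 RPM with PABPC1, 3967 and 3745 with PABPC4, and 2022 and 2335 with IgG. Their ratio was 1.20 (1.08 to 1.33) and 1.79 (1.63 to 1.97), against 0.527 and 0.436 for the 3 heavy chains. In the direct fit 0 of the 8 tested loading genes passed by limma voom, and 2 did at its unadjusted p under 0.05, CANX and GANAB. Without mitochondrial rRNA in the totals, 128 genes of the whole table were higher with PABPC4 and 385 lower, against 1188 and 193 in the deposited table, so the higher calls depend on the scaling.

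Of 9 trimming enzymes, the authors' deposited table called 1 with PABPC4, where 5.54% of all genes were higher. It was NRDC, a peptidase, at 3.40 (adjusted p 1.57e-07). Among all genes with at least 20 IgG reads, of which NRDC with 21 is 1, 59.2% were called higher with PABPC4. NRDC was also higher in the direct fit, at 0.69 ± 0.20 on the log2 scale (limma voom adjusted p 0.0390), where 2.44% of all genes were. Of 9 proteasome genes 1 was called higher with PABPC4 in the authors' deposited table, against the same 5.54% of all genes. It was PSME1, a subunit of the interferon-inducible activator, at 2.69 (adjusted p 0.00363). The immunoproteasome subunits were close to 0: PSMB8 had 5, 7 and 0 reads with PABPC1, PABPC4 and IgG, PSMB9 had 0, 3 and 0, and PSMB10 had 1, 0 and 1. None of the 23 regulators was called in the authors' deposited table; CREB1, which binds class I promoters and had most reads among them, was at 0.802 and 1.38 (adjusted p 1 and 0.951). None of 11 turnover and trafficking genes was called there either, SEL1L being at 1.31 and 1.75 (adjusted p 1 and 0.263). The direct fit called 1 of 7 of them lower by limma voom, where 2.08% of all genes were. It was STT3A at -0.96 (limma voom adjusted p 0.0384), named after its value was seen.

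Class I-like genes gave no call: MICA, a stress ligand of natural killer cells, was at 1.35 and 1.51 in the authors' deposited table (adjusted p 1 in both), and 5 of the 12 had no read. Of 5 class I pseudogenes 2 had reads, and HLA-L was at 0.777 and 0.631 in the authors' deposited table (adjusted p 1 in both). The list of MHC class II genes, which professional antigen-presenting cells express, also held genes that are not class II chains. Of its 14 genes, 2 were called lower with PABPC4 in the authors' deposited table, where 0.9% of all genes were. They were CTSS, a lysosomal protease and not a class II chain, at 0.192 (adjusted p 1.07e-06), and HLA-DPB1, listed at 0 (adjusted p 0.00328) with 3 IgG reads. CD74, the invariant chain, was at 1.12 and 1.06 there.

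**Figure D4:**
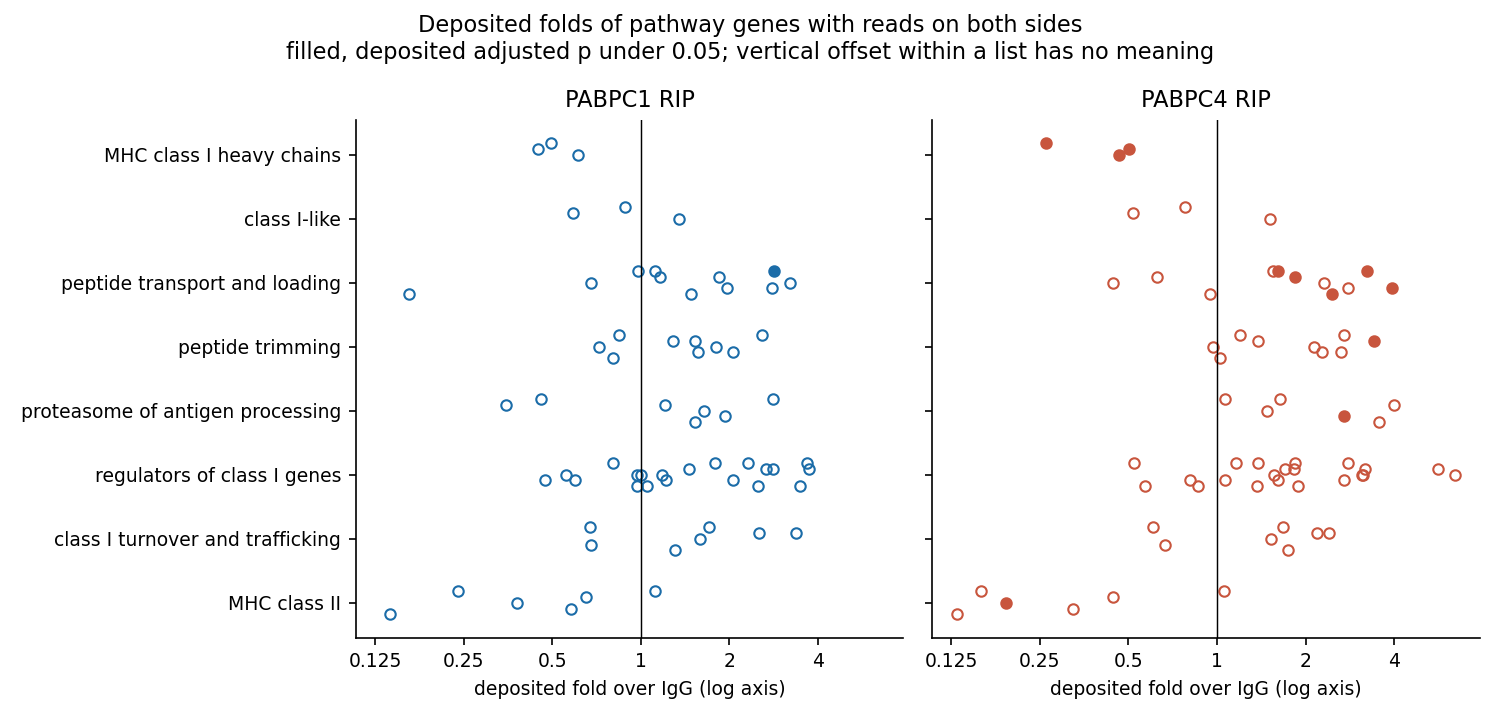
The authors' deposited fold over IgG, on a log axis, for genes of 8 lists with reads on both sides (of the heavy chains, HLA-B, HLA-C and HLA-E), with the PABPC1 RIP at left and the PABPC4 RIP at right; filled points have a deposited adjusted p under 0.05. The heavy chains called with PABPC4 lie at 0.263 to 0.502, and the called loading genes at 1.61 to 3.92.

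Summed markers of other cells were lower in both RIPs than with IgG, as B2M and the heavy chains were, while single markers differed. Haemoglobin beta (HBB), of red cells, stood at 740 and 793 RPM with PABPC1, 334 and 270 with PABPC4, and 2203 and 2228 with IgG, a ratio of 0.346 (0.304 to 0.394) and 0.136 (0.120 to 0.155). The 23 leukocyte markers with reads for each library (CD52 had sums only) came to 564 and 537 RPM with PABPC1, 336 and 353 with PABPC4, and 985 and 1252 with IgG. Over all 24 the ratio was 0.50 (0.422 to 0.593) and 0.313 (0.270 to 0.365). The order of the antibodies was thus that of B2M, and the reverse of the hepatocyte markers, whose ratio was 1.64 (1.53 to 1.75) and 2.19 (2.06 to 2.34).

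Of the 24 leukocyte markers, the authors' deposited table called 4 lower with PABPC1 and 10 lower with PABPC4, and 0 higher, where 0.194% and 0.9% of all genes were lower. Of the 5 with at least 20 IgG reads, 4 were lower in each, beside 2.29% and 3.02% of all genes at that depth. PTPRC, the CD45 antigen of all white cells, was at 0.199 (adjusted p 4.81e-06) and 0.0974 (1.01e-22) in the authors' deposited table. LCP1, MNDA and CSF3R, of leukocytes and myeloid cells, were also called in both tables, and S100A8, S100A9, SRGN, TLR8, HCLS1 and ARHGDIB in that for PABPC4. The marker with most reads did not share this: LYZ, lysozyme, had 91, 239 and 32 reads with PABPC1, PABPC4 and IgG, and folds of 1.16 and 1.02 in the authors' deposited table (adjusted p 1 in both). LAPTM5 was at 1.41 and 1.04 there (adjusted p 1 in both). Both were singled out after their values were seen. Of the leukocyte markers with reads on both sides, 16 of 19 lay below IgG with PABPC1 and 19 of 21 with PABPC4. No marker of the list was at 0 reads in all 3 antibodies; 5 were at 0 with PABPC1, 1 with PABPC4 and 2 with IgG.

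Of the 8 red cell markers the authors' deposited table called 3 lower with PABPC1 (HBB, HBA1 and HBA2) and 4 with PABPC4 (ALAS2 also), against the same 0.194% and 0.9% of all genes. Of 9 fibroblast markers it called COL1A1 and COL6A2 lower in both and COL1A2 with PABPC4, of 5 platelet markers TUBB1 with PABPC4, and of 4 endothelial markers PECAM1 with PABPC4. Of the 14 hepatocyte markers it called ALB and APOB higher in both and SERPINA1, FGB, FGA, TF, HNF4A, AHSG and GPC3 with PABPC4, where 1.34% and 5.54% of all genes were higher. Of the 9 with at least 20 IgG reads, 2 and 7 were called higher, beside 18.7% and 59.2% of all genes at that depth. Both counts are thus near the background. In the direct fit, limma voom called 4 of 8 tested leukocyte markers and 3 of 3 red cell markers lower with PABPC4, where 2.08% of all genes were, with HBB at -1.79 ± 0.12 (adjusted p 3.55e-14). White cells and many other nucleated cells also express B2M and the HLA chains. The part of these cells' RNA in the class I values was not tested.

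Beside HBB, there were 19.2 and 15.5 B2M reads per 100 HBB reads with PABPC1, 19.4 and 23.8 with PABPC4, and 10.9 and 9.52 with IgG, so that both RIPs lay above IgG. Beside the 23 leukocyte markers, there were 25.2 and 22.8 B2M reads per 100 marker reads with PABPC1, 19.2 and 18.2 with PABPC4, and 24.4 and 16.9 with IgG, whose libraries spanned those of PABPC4 and overlapped those of PABPC1. LYZ weighs on this measure: without it, an alternative chosen after seeing the data, the values were 33.3 and 34.7 with PABPC1, 31.4 and 32.0 with PABPC4, and 28.8 and 18.9 with IgG, both RIPs again above IgG. The ratio of the leukocyte markers to IgG without LYZ was 0.407 (0.336 to 0.492) with PABPC1 and 0.212 (0.178 to 0.252) with PABPC4.

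**Figure D5:**
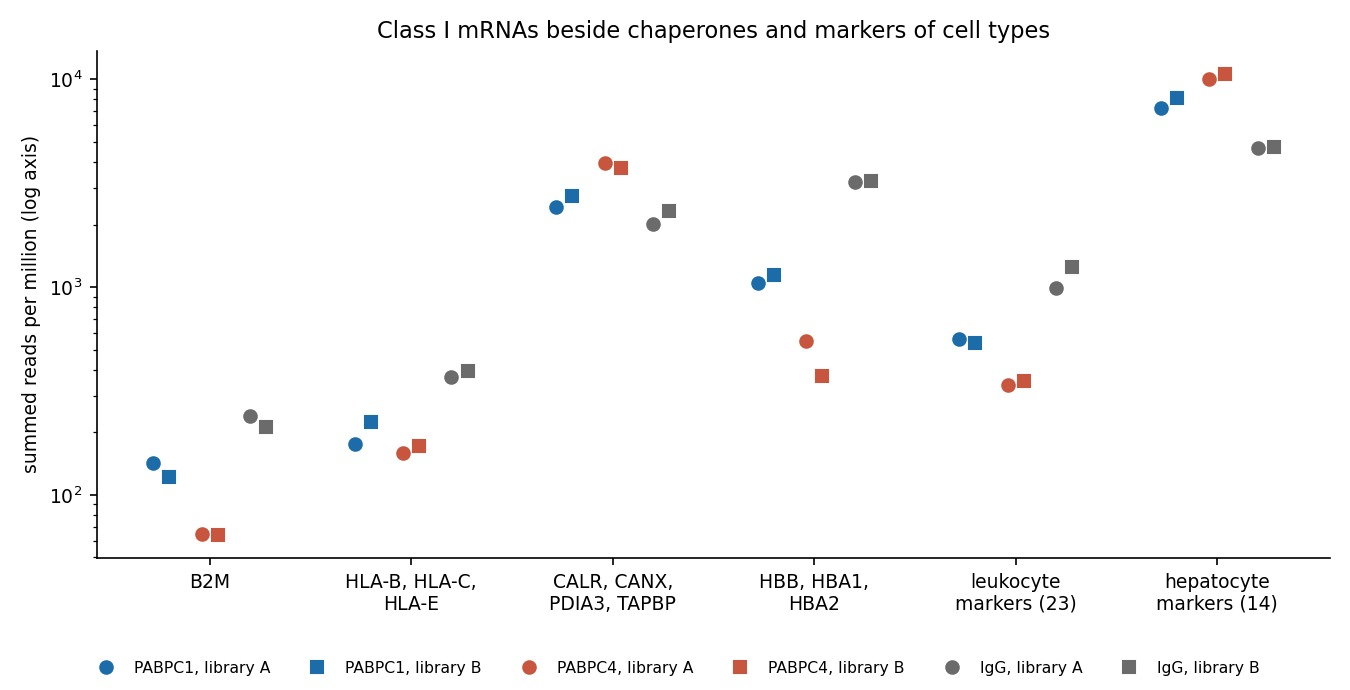
Summed RPM, on a log axis, of B2M, of 3 heavy chains, of the loading chaperones with tapasin, and of red cell, leukocyte and hepatocyte markers in each library; circles are library A and squares library B. B2M, the heavy chains, the globins and the leukocyte markers are highest with IgG, and the chaperones and hepatocyte markers are highest with PABPC4.

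Over the 6 libraries, the genes whose pattern was most like that of B2M, by Euclidean distance of centred log2 RPM among 186 genes with at least 50 IgG reads, were MTRNR2L12 (0.35), RN7SL3 (0.46), RN7SL2 (0.66), RN7SL4P (0.75) and SEC14L1 (1.05). MTRNR2L12 is a nuclear gene resembling mitochondrial 16S rRNA, and the RN7SL genes are copies of 7SL, the RNA scaffold of the signal recognition particle, so reads of each family may be shared among near-identical copies. The authors' deposited table listed these 5 at 0.635, 0.462, 0.402, 0.389 and 0.319 for PABPC1 and at 0.357, 0.219, 0.209, 0.198 and 0.181 for PABPC4, on the same side as B2M at 0.584 and 0.285. No other member had 50 IgG reads, so none was given neighbours.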

How the data were processed

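RNA from RIP of PABPC1, PABPC4 and rabbit IgG in HepG2 was extracted from the beads and made into libraries with random primers, per the labels' protocols. Per the submitters' processing notes, the tools were STAR 2.7.10a, Bowtie2 2.4.1 and featureCounts 2.0.1 and the build GRCh38 (hg38), with no step named. Strand use in counting is not stated in any source used. The authors deposited 2 tables holding, per the file headers, a fold (a linear ratio of RIP to IgG), a p-value and a Benjamini-Hochberg adjusted p for 58302 genes; 0 columns held values of single libraries. The deposited p-values equal chi-square tests (Yates-corrected) on summed reads, and the deposited fold is a ratio of mean depth-scaled levels with 0.005 RPKM added to IgG, so that an integer search returned whole reads per library for 22138 of 22607 genes with a read, sums only for 465, and nothing for 4 (2 of them mitochondrial rRNAs, taken as what other genes leave of each total). The search was tested on simulated data, as was the direct fit below, which missed most of the changed genes there. The search does not tell which library is which replicate, nor which IgG library belongs to which cells.

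Levels are RPM over all reads, with exact (Clopper-Pearson or conditional binomial) 95% intervals. The direct comparison used limma 3.58.1 (voom) in R 4.3.3 on genes that reached 10 reads in 2 or more libraries, median-of-ratios scaling, 3 groups, 3 residual and 32.9 prior degrees of freedom; calls are at an adjusted p under 0.05. Named genes are the 7 members, genes of the lists that a deposited table calls or that have at least 100 IgG reads, the gene with most reads of a list with none, and the 5 nearest to B2M; HLA-F, HLA-G, CD74, LYZ, LAPTM5, CD52, GANAB, STT3A and the immunoproteasome genes were added. The members and lists were chosen with earlier results of these data known. Promoters are RefSeq's for GRCh38.p14.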

Additional observations from a re-analysis of the deposited data

How the results depend on the processing

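With PABPC1 against IgG, where 0 of the 7 members passed, 3 passed with totals without mitochondrial rRNA, 2 with median-of-ratios scaling and 2 (B2M and HLA-C) when only genes with at least 20 summed reads were adjusted together; leaving out 1 library gave 0 to 1. With PABPC4 against IgG the count was 4, and 2 to 4 with 1 library left out; Fisher's exact test and the 20-read minimum each added TAPBP. In the direct comparison, where 3 passed, library totals left 1 and limma's trend on log2 RPM left 1, B2M in each; leaving out 1 library gave 0 to 3, with HLA-E lost without PABPC4 library A (limma voom adjusted p 0.0526). None of the values that changed sign had passed the threshold: TAP1 with PABPC1 (log2 ratio -0.11 to 1.46 over libraries left out, -0.07 without PABPC1 library A), TAP2 (-1.56 to 0.43), and, in the direct comparison, HLA-C (0.20 with library totals, -0.58 to 0.087 over libraries left out) and TAPBP (-0.31 to 0.45). The cause of these changes was not tested. Over all genes, calls with PABPC1 went from 235 higher and 34 lower to 27 and 75 without mitochondrial rRNA and to 36 and 51 with median-of-ratios scaling; with PABPC4, from 1188 and 193 to 128 and 385, and to 169 and 356. The direct fit gave 195 higher and 166 lower, 11 and 20 by limma's trend, and 180 and 1588 with all genes that had a read. No paired analysis was possible because the recovered reads carry no replicate number. The 227265 IgG reads limit the depth of both comparisons with IgG, and TAP1 and TAP2 are below what it can resolve.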
